A study of Mus musculus with 7 samples.

Results

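The nuclear-encoded subunits of the respiratory chain were examined in whole mouse uterus. Members were chosen by symbol (the Nduf a, b, c, s and v series, Sdha to Sdhd, Uqcr genes, Cox4 to Cox8 genes and Atp5 genes) and by a mean level of at least 1 FPKM over the 7 libraries. FPKM is a level per length, the fragments of a gene divided by its length and by the library's total. Of 80 matching symbols among 24964 listed genes, 76 passed: 35 of complex I, 4 of complex II, 8 of complex III, 13 of complex IV and 16 of complex V. The 4 that did not pass were Cox6a2, Cox7b2, Cox8c and Ndufs5. Cox8c was listed at 0 in every library and Ndufs5 in all libraries but Foxl2LsL 3. Ndufs5 had at most 1 fragment in any library, while every other complex I gene had a mean of 17.7 FPKM or more. Whether the values of Ndufs5 mean little RNA or a loss in the counting was not tested. Cox4i1, Cox4i2, Cyc1 and Cycs lie outside the symbol pattern and are described as partners.

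The study set 3 control libraries (Pgrcre/+, replicates 1, 2 and 4) against 4 libraries labelled Pgrcre/+Foxl2LsL/+ (replicates 1 to 4), here called control and Foxl2LsL. All mice were 12 weeks old and in diestrus, and both groups carried the Pgrcre allele, a Cre driven from the progesterone receptor gene. Cre is thus made in progesterone receptor-expressing cells, while the libraries hold RNA of all cells of the uterus. The series title speaks of overexpressed FOXL2, and the comparison addresses how that changes the uterus.

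The respiratory chain sits in the inner mitochondrial membrane. Complexes I and II pass electrons from NADH and succinate to ubiquinone, complex III passes them on to cytochrome c, and complex IV hands them to oxygen. Complexes I, III and IV pump protons, and complex V uses the returning protons to make ATP. Most subunits are encoded in the nucleus, and a few core subunits by the mitochondrial genome, whose genes are not analysed here.

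Foxl2 itself was at 11.1, 19.3 and 12.9 FPKM in controls 1, 2 and 4 and at 12.7, 14.3, 14.8 and 17.2 FPKM in Foxl2LsL 1 to 4. The groups overlapped, and the limma log2 fold change was 0.06 (SE 0.18, adjusted p = 0.818). The label was therefore not borne out by the gene's own level, and every direction given here is between libraries as labelled. Fragment totals behind the FPKM values, worked back from the table, were between 47800000 (Foxl2LsL 2) and 67200000 (control 2). All 7 genes of the uterus list were expressed, and 5 of them differed between the groups. Esr1 was higher in Foxl2LsL (0.55), Hand2 (-2.18), Hoxa11 (-1.90), Hoxa10 (-1.45) and Msx1 (-0.63) were lower, and Pgr and Emx2 did not pass; the summed level was 302 to 402 FPKM in controls and 201 to 235 FPKM in Foxl2LsL. Markers of other cells differed between the groups: all 6 markers of dividing cells were lower in Foxl2LsL, with a summed level of 70.3 to 163 FPKM in controls and 8.51 to 26.8 FPKM in Foxl2LsL. Of smooth muscle markers 4 of 10 were higher, with summed levels of 900.2 to 1741 FPKM in controls and 1582 to 2019 FPKM in Foxl2LsL. Of epithelial markers 3 of 8 were higher (summed 631 to 1395 and 1111 to 1750.2 FPKM), while all 3 tested gland markers and 4 of 5 endothelial markers were lower. Of stromal markers 1 of 8 was higher and 2 lower, of leukocyte markers 1 of 3 was higher, and both tested skeletal muscle genes were lower, Acta1 by -1.70 and Tnnt3 by -0.68 (summed list 18.9 to 60.01 and 6.74 to 13.0 FPKM), while Myh2 and Myh4 of that list were at 0 in every library. The summed adipocyte markers were at 0.377, 4.88 and 52.9 FPKM in controls and at 1.62, 75.4, 141 and 10.1 FPKM in Foxl2LsL 1 to 4. By limma adjusted p under 0.05, 40.6% of all tested genes differed. The shares of smooth muscle (40%), epithelial (37.5%), stromal (37.5%) and leukocyte (33.3%) markers were close to or below this, and no adipocyte marker differed. Those of dividing cells (100%), glands (100%), endothelium (80%), skeletal muscle (100%) and the uterus list (71.4%) were above it. The part of these cell markers in the results on subunit genes was not tested, and in bulk tissue fewer cells of a type and less RNA per cell cannot be told apart.

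Most subunit genes showed small differences between the groups. Past the threshold (limma on log2(FPKM + 1), adjusted p under 0.05 over 13334 genes) were 7 of 76 members, or 9.21%, against 40.6% of all tested genes. Of the 7, 2 rose in Foxl2LsL (Cox7a2l and Cox6b2) and 5 fell, among them Cox6c, Uqcrq, Cox5a and Atp5b. Among all tested genes 16.7% were higher and 23.9% lower. Without adjustment, 16 members had a p under 0.05. The 2 groups did not overlap for 17 members (22.4%), against 47.6% of all tested genes. The median log2 fold change of the members was -0.04, beside -0.05 for all tested genes, and the median size of the change without its sign was 0.12, beside 0.27. The change was under 0.25 on the log2 scale for 59 members (77.6%), against 47.4% of all tested genes. The median standard error was 0.11 for both.

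The split into higher and lower members moved with the scaling of the libraries. It was 4 higher and 2 lower after centring on the median gene, 1 and 13 after scaling to a common sum, 6 and 9 after quantile normalization, 3 and 14 after a correction for gene length and 11 and 7 with libraries weighted by quality. Without Foxl2LsL 1 and 2, the libraries that stood furthest apart for these genes, 8 members were called, 1 higher and 7 lower. In each of these fits the share of members called was below that of all tested genes.

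**Figure D1:**
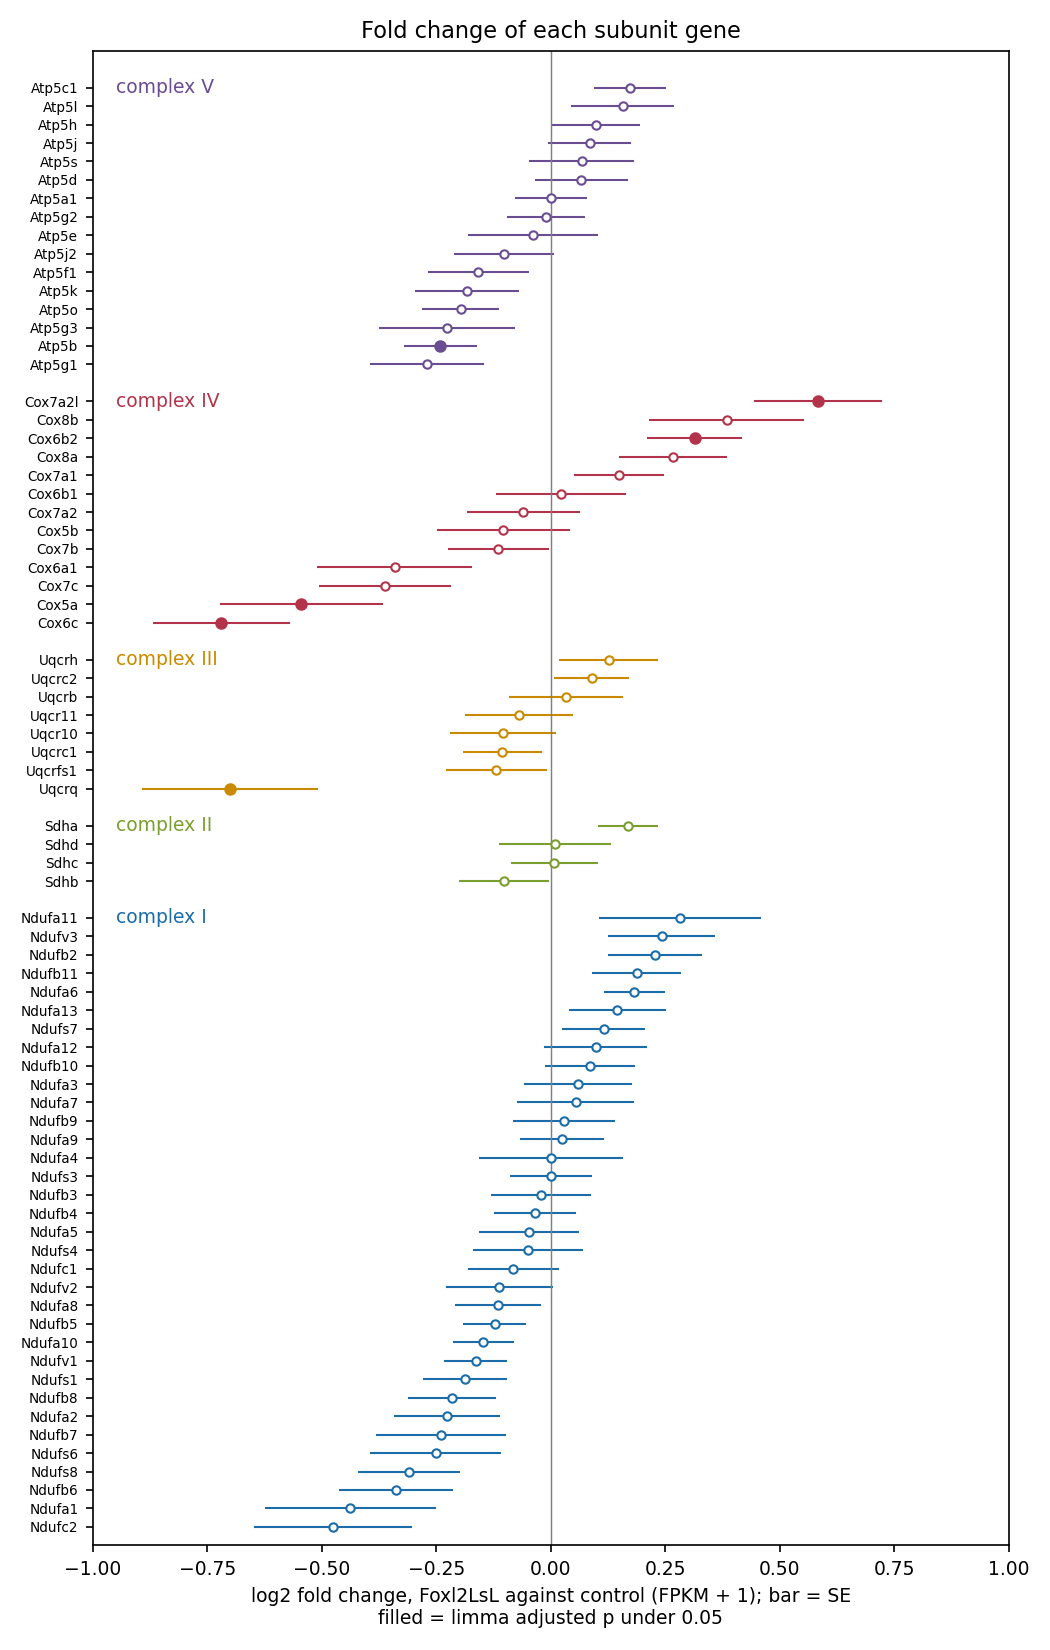
The limma log2 fold change on the log2(FPKM + 1) scale (horizontal axis) of 75 subunit genes, grouped by complex, with its standard error as a bar; filled points passed an adjusted p of 0.05. Of complex IV 4 of 13 genes passed, at both ends of its range from -0.72 to 0.58, while no gene of complex II passed.

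Complex I, the NADH dehydrogenase, had 1 of 35 members past the threshold. The other 34 members had estimates from -0.48 to 0.28, and 22 of all 35 lay below 0. The lowest estimate belonged to Ndufc2, an accessory subunit of the membrane arm, at 122, 103 and 133 FPKM in controls and 110.5, 65.3, 84.9 and 85.5 FPKM in Foxl2LsL (-0.48, SE 0.17, limma adjusted p = 0.0591). Foxl2LsL 1 lay inside the control range for this gene, and the other Foxl2LsL libraries lay below it. The highest was Ndufa11, also of the membrane arm, at 19.6, 18.1 and 18.6 FPKM in controls and 29.7, 16.7, 21.4 and 26.4 FPKM in Foxl2LsL (0.28, SE 0.18, limma adjusted p = 0.234). Its Foxl2LsL libraries lay on both sides of the controls.

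The groups did not overlap for 7 of 35 complex I genes, or 20%, against 47.6% of all tested genes. Of these, 6 did not pass the adjusted test; these and the 2 extreme genes above were named after their values were seen. Ndufb6, Ndufs8, Ndufv1, Ndufa10 and Ndufb5 were lower in Foxl2LsL by -0.34, -0.31, -0.16, -0.15 and -0.12 on the log2 scale. Ndufs8 carries iron-sulfur clusters, and Ndufv1 holds the NADH-binding site. Ndufa6 was higher by 0.18, at 92.6 to 98.2 FPKM in controls and 100.8 to 111 FPKM in Foxl2LsL. The most abundant member was Ndufa4, first assigned to complex I and later found with complex IV, at 288, 260.002 and 256 FPKM in controls and 349, 213, 254 and 272 FPKM in Foxl2LsL. Its estimate was near 0 (-0.00013, SE 0.16), and its Foxl2LsL libraries spread to both sides of the controls. The least abundant was Ndufb4, at 17.8 to 18.1 FPKM in controls and 15.7 to 20.2 FPKM in Foxl2LsL.

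Complex II, succinate dehydrogenase, is wholly encoded in the nucleus and also works in the citrate cycle. By limma 0 of its 4 members passed the adjusted test, and 1 (Sdha) had an unadjusted p under 0.05. By limma-voom on the fragments worked back from FPKM none passed either. Sdha, the flavoprotein that oxidizes succinate, was at 78.0, 80.9 and 80.1 FPKM in controls and 94.2, 84.5, 92.3 and 88.1 FPKM in Foxl2LsL (0.17, SE 0.07, limma adjusted p = 0.0729). All Foxl2LsL libraries were above the controls, and the adjusted p was under the threshold in 6 of 23 alternative fits. Sdhb, the iron-sulfur subunit, was at 61.7 to 69.4 FPKM in controls and 52.6 to 68.2 FPKM in Foxl2LsL (-0.10, SE 0.10). The membrane anchors Sdhc and Sdhd had estimates of 0.01 each, and both took the other sign in some fits. Their groups overlapped: Sdhc was at 65.3 to 70.6 and 60.2 to 78.2 FPKM, and Sdhd at 75.4 to 87.7 and 69.7 to 99.3 FPKM.

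In complex III, the cytochrome bc1 complex, 1 of 8 members passed. Uqcrq, a small subunit of the membrane part, was at 32.2, 26.4 and 33.5 FPKM in controls and 24.4, 13.1, 17.4 and 20.5 FPKM in Foxl2LsL. The groups did not overlap, and the ratio of means was 0.614 (log2 fold change -0.70, SE 0.19, limma adjusted p = 0.0230). The call was lost without control 1 (adjusted p = 0.0599), without control 4 (0.0548) and without Foxl2LsL 3 (0.0607). The other 7 members had estimates from -0.12 to 0.13, and the groups overlapped for each. They include the Rieske iron-sulfur protein Uqcrfs1 (-0.12, SE 0.11) and the core proteins Uqcrc1 (-0.11, SE 0.09) and Uqcrc2 (0.09, SE 0.08). The most abundant, Uqcrh, the hinge protein near cytochrome c1, was at 246, 212 and 209 FPKM in controls and 277, 231, 249 and 216 FPKM in Foxl2LsL (0.13, SE 0.11).

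Complex IV, cytochrome c oxidase, had 4 of 13 members past the threshold (30.8%, against 40.6% of all tested genes). Its median size of change without the sign was 0.31, beside 0.15 in complex I, 0.06 in complex II, 0.11 in complex III and 0.13 in complex V. For all tested genes it was 0.27. The median standard error was also largest in complex IV, at 0.14, beside 0.10 to 0.11 in the other complexes. Cox6c, a small subunit of the membrane part, was at 351, 369 and 458 FPKM in controls and 290.3, 198, 242 and 225 FPKM in Foxl2LsL. Every control was above every Foxl2LsL library, with a ratio of means of 0.608 (log2 fold change -0.72, SE 0.15, limma adjusted p = 0.00756). Among the 7 called members only Cox6c kept its call in all 23 alternative fits, with estimates from -0.82 to -0.60. Cox5a, a subunit on the matrix side, was at 131, 107 and 107 FPKM in controls and 104, 59.8, 73.9 and 81.0 FPKM in Foxl2LsL. The highest Foxl2LsL library lay just under the lowest control (log2 fold change -0.54, SE 0.18, limma adjusted p = 0.0423). This call was lost in 9 fits, with adjusted p up to 0.118 (without control 1).

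Cox7a2l differed in the other direction. Its product, also called SCAFI, joins complexes III and IV into a supercomplex. It was at 135, 125 and 128 FPKM in controls and 162, 230.1, 224 and 170.3 FPKM in Foxl2LsL. All Foxl2LsL libraries were above the controls, Foxl2LsL 2 and 3 by the most, and the ratio of means was 1.52 (log2 fold change 0.58, SE 0.14, limma adjusted p = 0.0136). The call was lost in 3 of 23 alternative fits, with adjusted p up to 0.0945; without control 2 it was 0.0504 and the estimate 0.56. Cox6b2, known as a testis form of the subunit that faces the intermembrane space, was at 11.4, 10.7 and 12.6 FPKM in controls and 15.04, 13.9, 12.8 and 16.9 FPKM in Foxl2LsL. Foxl2LsL 3 was only just above control 4 (log2 fold change 0.31, SE 0.10, limma adjusted p = 0.0441), and the call was lost in 12 fits. Cox7c, named after its values were seen, was at 204, 201 and 204 FPKM in controls and 200.1, 126, 165 and 148 FPKM in Foxl2LsL (-0.36, SE 0.14, limma adjusted p = 0.0795). The least abundant member, Cox8b, a form of muscle and brown fat, was at 0.901 to 1.64 FPKM in controls and 1.42 to 2.40 FPKM in Foxl2LsL. Of the 5 brown fat markers, 2 were tested: Dio2 was lower in Foxl2LsL (-1.62) and Ppargc1a higher (0.84). Ucp1 was at 0 in 5 libraries and at most at 0.013 FPKM, and Cidea was at most at 0.468 FPKM. The part of these markers in the level of Cox8b was not tested.

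**Figure D2:**
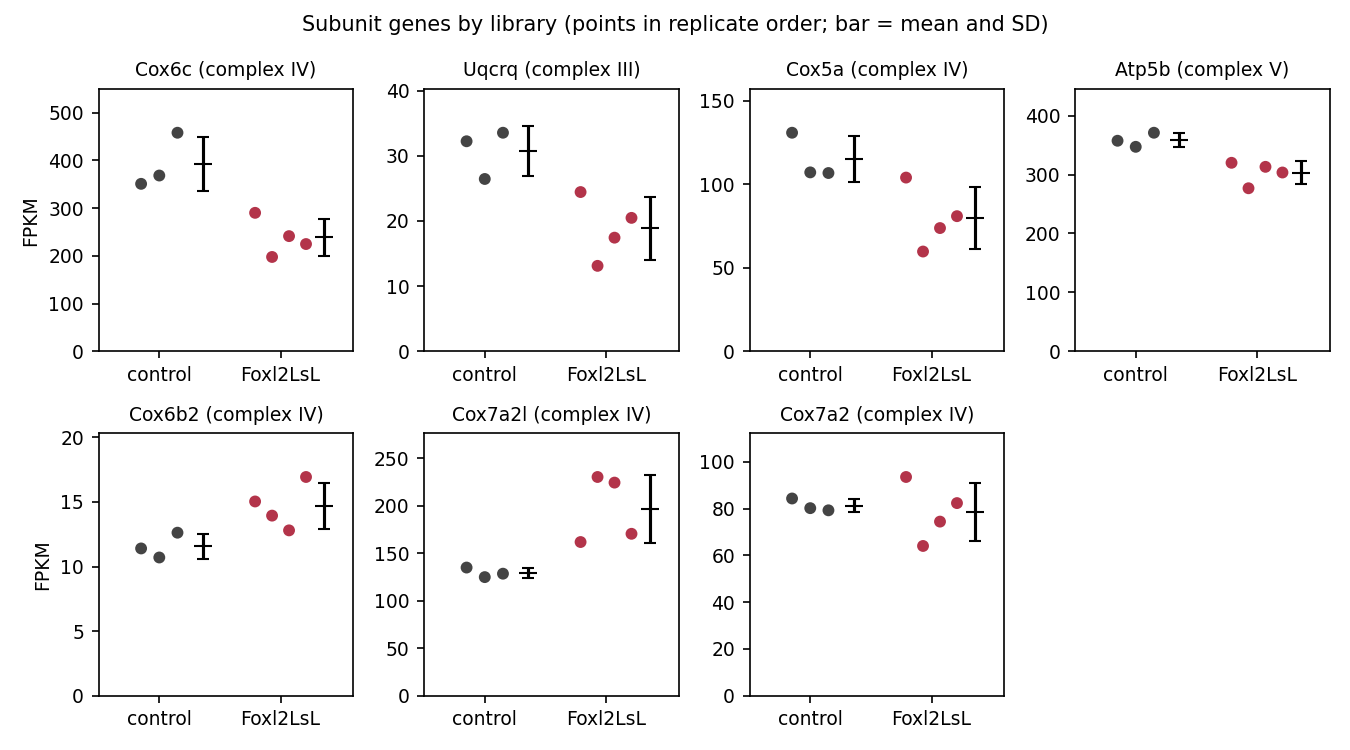
FPKM (vertical axis, from 0) of 6 subunit genes past the threshold and of Cox7a2 in each control (grey) and Foxl2LsL (red) library, with the mean and SD of each group as a bar. For the 6 genes no control overlaps a Foxl2LsL library; Cox7a2, with a Foxl2LsL range of 64.0 to 93.5 FPKM, spans its controls.

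Complex V, the ATP synthase, had 1 of 16 members past the threshold. Atp5b, the catalytic beta subunit, was at 357, 347 and 371 FPKM in controls and 319.9, 277, 313 and 303 FPKM in Foxl2LsL. The ratio of means was 0.846, and the groups did not overlap (log2 fold change -0.24, SE 0.08, limma adjusted p = 0.0438). The call was lost in 13 of 23 fits, among them each fit without 1 library other than that without Foxl2LsL 1. Atp5a1, the alpha subunit that alternates with beta in the same ring, was at 227 to 241 FPKM in controls and 215 to 252 FPKM in Foxl2LsL, with an estimate of 0.00 (SE 0.08). The gamma subunit Atp5c1, the rotor shaft, was at 69.8 to 76.9 and 77.8 to 90.6 FPKM in the 2 groups (0.17, SE 0.08, limma adjusted p = 0.116). Estimates of all 16 ran from -0.27 (Atp5g1) to 0.17 (Atp5c1). Atp5s, whose product is known as a coupling factor, was the least abundant, at 4.68 to 5.74 and 4.88 to 6.47 FPKM. Its RefSeq symbol is Dmac2l, and it counts as a complex V member here only by the older symbol.

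Several subunits have alternative forms encoded by related genes, and 8 ratios of such pairs could be tested by an exact two-sided permutation test, which can give no p under 0.0571 with 3 and 4 libraries. None passed: the adjusted p was 0.229 or higher for each. The ratio of Cox7a2l to its relative Cox7a2 was 1.599, 1.56 and 1.62 in controls and 1.73, 3.60, 3.01 and 2.07 in Foxl2LsL (difference of 0.64 in log2, exact permutation p = 0.0571). The groups did not overlap, with Foxl2LsL 1 close to the controls. For Cox4i2, a form of subunit 4 known from lung and from low oxygen, the ratio to the common form Cox4i1 was 0.00826, 0.0120 and 0.0241 in controls and 0.00491, 0.00671, 0.00470 and 0.00466 in Foxl2LsL. This pair did not overlap either (difference of -0.997 in log2, exact permutation p = 0.0571). The differences and tests of all pairs used the log2 ratio of FPKM + 1, while the ratios printed are of FPKM alone. Cox4i2 was at 2.78 to 6.83 FPKM in controls and 1.41 to 1.90 FPKM in Foxl2LsL. At such levels the added 1 makes the difference smaller in size than the printed ratios would give. For the other 6 pairs, which were Cox6b2 with Cox6b1, Cox7a1 with Cox7a2, Cox8b with Cox8a, Atp5g1 and Atp5g2 with Atp5g3 and Ndufa4l2 with Ndufa4, the groups overlapped. Cox7a1, Cox6a1, Cox6b1, Cox8a, Atp5g2 and Atp5g3 did not pass the test across genes, with estimates from -0.34 (Cox6a1) to 0.27 (Cox8a).

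The members moved together from library to library within the Foxl2LsL group. Relative to the mean of the controls, the median member was at 0.14, -0.27, -0.06 and -0.05 in Foxl2LsL 1 to 4 (log2), while the median of all tested genes lay at -0.04, -0.05, -0.07 and -0.05. Foxl2LsL 1 was the highest of its group for 69 members (90.8%; 31.1% of all tested genes), and Foxl2LsL 2 the lowest for 67 (88.2%; 33.2%). Foxl2LsL 1 was above Foxl2LsL 2 for 74 of 76. The summed level of the members was 7784, 7243 and 7826 FPKM in controls and 8292, 6223, 7292 and 7182 FPKM in Foxl2LsL 1 to 4. The median SD between libraries on the log2 scale was 0.09 in controls and 0.18 in Foxl2LsL, against 0.14 and 0.12 for all tested genes. Cox7a2l went the other way and was highest in Foxl2LsL 2. Foxl2LsL 2 also had the fewest fragments and the smallest share on listed genes (74.4%, against up to 77.5%). Members are short, with a median length of 756 bases, and of all tested genes up to 1000 bases 48.6% were lowest in Foxl2LsL 2. Of all tested genes over 1000 bases 31.8% were. Among members the share was 87.5% up to 1000 bases and 89.3% over 1000 bases. The part of depth and gene length in this order was not tested.

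**Figure D3:**
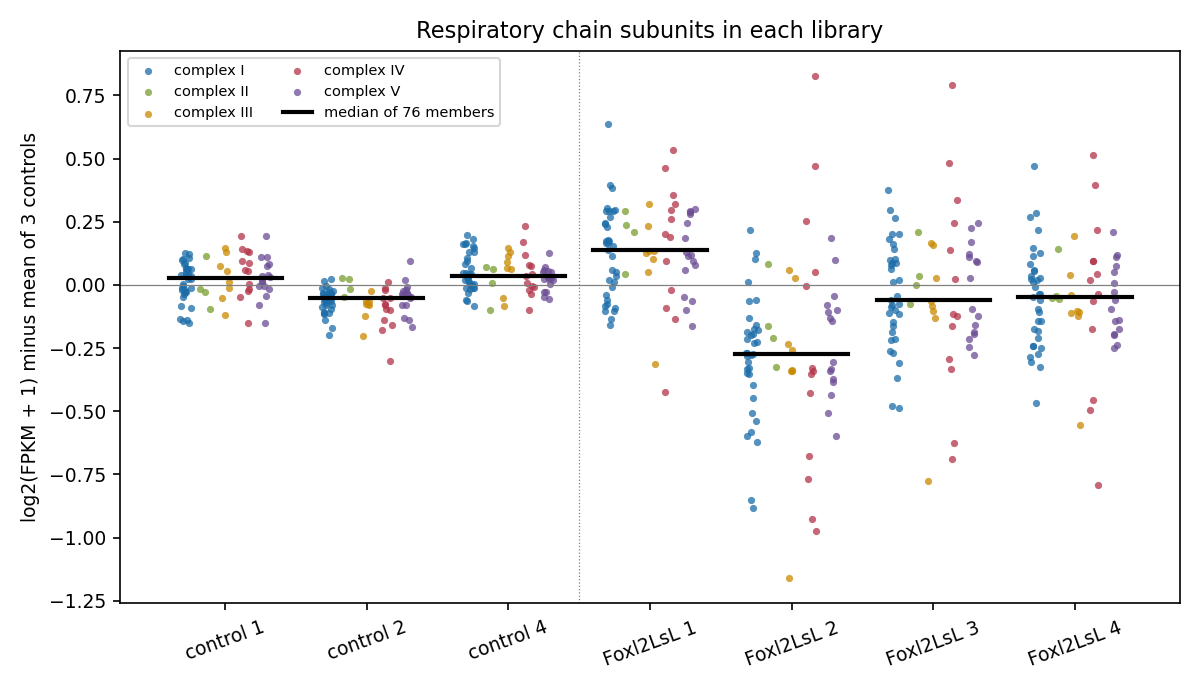
Each point is 1 of the 76 subunit genes in 1 library, coloured by complex, as log2(FPKM + 1) minus the mean of the 3 controls (vertical axis); black bars are medians over the members. Foxl2LsL 1 lies above the controls (0.14) and Foxl2LsL 2 below (-0.27), with Foxl2LsL 3 and 4 near -0.05.

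The promoters of the members were searched for motifs of known regulators of these genes. RefSeq windows (build GRCm38.p6) of 250 bases before to 50 after the start were found for 66 members, 71 windows in all. Windows on a single chromosome were left out of every set, so any member there was not searched. On both strands, the NRF1 motif GCGCATGCG was in 11.3% of member windows, against 3.38% of windows of tested genes and 1.75% of all windows. The ETS motif CCGGAAG, bound by GABP among others, was in 22.5% (16.8% and 8.86%), and the YY1 motif AAGATGGC in 14.1% (4.20% and 2.75%). The estrogen-related receptor motif TCAAGGTCA was in 2.82% (0.263% and 0.423%), which is only 2 of 71 member windows. The SP motif GGGCGG was in 39.4%, below the 62.0% of tested genes and above the 35.7% of all windows. These matches describe the letters only. The NRF1 motif is nearly its own reverse complement, so that its matches on both strands overlap in Cox6a1. The 250 bases before the start are shown for Cox7a2l, which rose, and Atp5b, which fell, both with SP matches alone, and for Cox6a1, chosen after the search because its window held NRF1, ETS and SP matches, with motifs in capitals. The windows are chr17:83514334-83514583 (minus strand), chr10:128083057-128083306 (plus strand) and chr5:115348959-115349208 (minus strand).
Cox7a2l: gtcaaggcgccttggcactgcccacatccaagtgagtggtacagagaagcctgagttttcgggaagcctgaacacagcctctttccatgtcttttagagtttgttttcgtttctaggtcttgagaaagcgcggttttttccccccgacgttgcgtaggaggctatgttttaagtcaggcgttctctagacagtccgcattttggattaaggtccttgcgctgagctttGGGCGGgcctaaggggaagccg
Atp5b: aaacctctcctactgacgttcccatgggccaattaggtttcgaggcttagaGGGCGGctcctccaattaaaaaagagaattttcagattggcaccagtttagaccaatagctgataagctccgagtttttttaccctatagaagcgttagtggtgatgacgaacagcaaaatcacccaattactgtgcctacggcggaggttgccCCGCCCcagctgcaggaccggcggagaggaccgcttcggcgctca
Cox6a1: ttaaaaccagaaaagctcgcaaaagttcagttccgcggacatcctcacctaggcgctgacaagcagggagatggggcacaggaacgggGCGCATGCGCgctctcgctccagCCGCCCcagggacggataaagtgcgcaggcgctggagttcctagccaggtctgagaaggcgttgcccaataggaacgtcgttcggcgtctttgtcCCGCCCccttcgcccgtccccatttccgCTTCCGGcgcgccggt
Cox6a1 did not pass the test between the groups (-0.34, SE 0.17, limma adjusted p = 0.141). Motif content was not tested against the change between groups.

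Genes that act with the subunits were compared through lists. Of 9 tested partners outside the symbol pattern 5 were lower and none higher (55.6%, against 40.6% of all tested genes). Only 2 were lower without control 2, without control 4, without Foxl2LsL 3 or without Foxl2LsL 4, and 3 without control 1 or without Foxl2LsL 2. Cycs, cytochrome c itself, was at 13.6, 15.1 and 13.2 FPKM in controls and 9.31, 5.74, 6.30 and 7.16 FPKM in Foxl2LsL (log2 fold change -0.90, SE 0.14, limma adjusted p = 0.0027). All Foxl2LsL libraries were well below the controls. Cyc1, the cytochrome c1 of complex III, Ndufab1, the acyl carrier protein of complex I, Cox4i2 and Ndufa4l2 were lower too, by -0.37, -0.34, -0.97 and -0.72; Cyc1 and Ndufab1 were named after their values were seen. The call was lost in 7 of 22 fits for Ndufa4l2 (adjusted p up to 0.152), 6 of them without a single library, and in 3 of 22 for Cox4i2 (adjusted p up to 0.0739). Cox4i1 was at 282 to 336 FPKM in controls and 283 to 338 FPKM in Foxl2LsL (0.03, SE 0.10).

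Assembly factors build the complexes without staying in them. Of 50 tested 5 were higher and 16 lower (42.0%, close to the 40.6% of all tested genes), with a median of -0.08. For complex I 1 of 15 was higher and 6 lower, among them Ndufaf4 (-0.67), Acad9 (-0.61) and Ndufaf6 (-0.46). Acad9 was at 15.7 to 18.1 FPKM in controls and 10.1 to 12.3 FPKM in Foxl2LsL (SE 0.09, limma adjusted p = 0.0020). Sdhaf1 of complex II fell by 0.51, Uqcc2 of complex III by 0.56, Cmc2, Higd1a and Cox18 of complex IV by 0.64, 0.59 and 0.51, and Atpaf1 of complex V by 0.39. The call was lost in 5 fits for Higd1a, 4 for Atpaf1, 3 for Uqcc2, 2 for Ndufaf6 and 1 for Sdhaf1. In complex IV assembly 4 of 23 genes were higher and 7 lower, with a median of 0.00; the 4, named after their values were seen, were Coa4 (0.40), Surf1 (0.36), Cmc1 (0.34) and Cox14 (0.30). Without control 1, without Foxl2LsL 3 or without Foxl2LsL 4, only 2 of all 50 assembly factors were higher, 3 were without control 2 or without control 4, and 8 were without Foxl2LsL 2.

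Among 78 tested genes of the mitochondrial ribosome, which translates the mitochondrially encoded subunits, 35 (44.9%) were lower and none higher, with a median of -0.22. Of all tested genes 40.6% were called, 23.9% lower and 16.7% higher. Mrpl20 (-0.61), Mrpl38 (-0.51) and Mrps11 (-0.51) had the largest changes. Mrpl38 was at 31.7 to 32.9 FPKM in controls and 21.8 to 23.5 FPKM in Foxl2LsL (SE 0.06, limma adjusted p = 0.0009). The number lower ranged from 14 to 41 and the number higher from 0 to 3 over the alternative fits, and the median stayed between -0.27 and -0.17. Of 16 import and carrier genes 8 (50%) were lower and none higher. The chaperone Hspd1 (-0.86), the import pore Tomm40 (-0.76) and the ADP/ATP carrier Slc25a5 (-0.70) had the largest changes. Of 13 citrate cycle genes 2 were higher and 5 lower (53.8% together), led by citrate synthase Cs (-0.49), Dlst (-0.35) and Mdh2 (-0.33). The call was lost in 7 of 23 fits for Mdh2 (adjusted p up to 0.0859) and in 1 for Dlst, and only 3 were lower without control 2, without Foxl2LsL 3 or without Foxl2LsL 4. Without Foxl2LsL 1 and 2 the numbers lower were 22 for the ribosome, 7 for import and carriers, 3 for the citrate cycle and 13 for assembly factors.

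Of 13 tested regulators of mitochondrial genes 2 were higher and 3 lower (38.5%, close to the 40.6% of all tested genes). With any 1 library left out other than Foxl2LsL 2, only 1 was higher. The coactivator Ppargc1a was at 1.37, 1.35 and 0.916 FPKM in controls and 1.95, 3.63, 4.36 and 2.32 FPKM in Foxl2LsL (log2 fold change 0.84, SE 0.22, limma adjusted p = 0.0180). The nuclear receptor Esrra was at 11.1 to 12.0 FPKM in controls and 12.6 to 22.8 FPKM in Foxl2LsL (0.52, SE 0.17, limma adjusted p = 0.0394), a call lost in 8 fits. Pprc1, a related coactivator, fell by 0.91, the mitochondrial RNA polymerase Polrmt by 0.39 and Nrf1 by 0.32; Polrmt and Nrf1 were named after their values were seen. Tfam, the packaging factor of mitochondrial DNA, had an estimate of 0.05 (SE 0.08). The 6 dividing-cell markers, whose log2 fold changes ran from -2.63 to -2.02, differed by more than any of these lists, and their part in the lower lists was not tested.

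**Figure D4:**
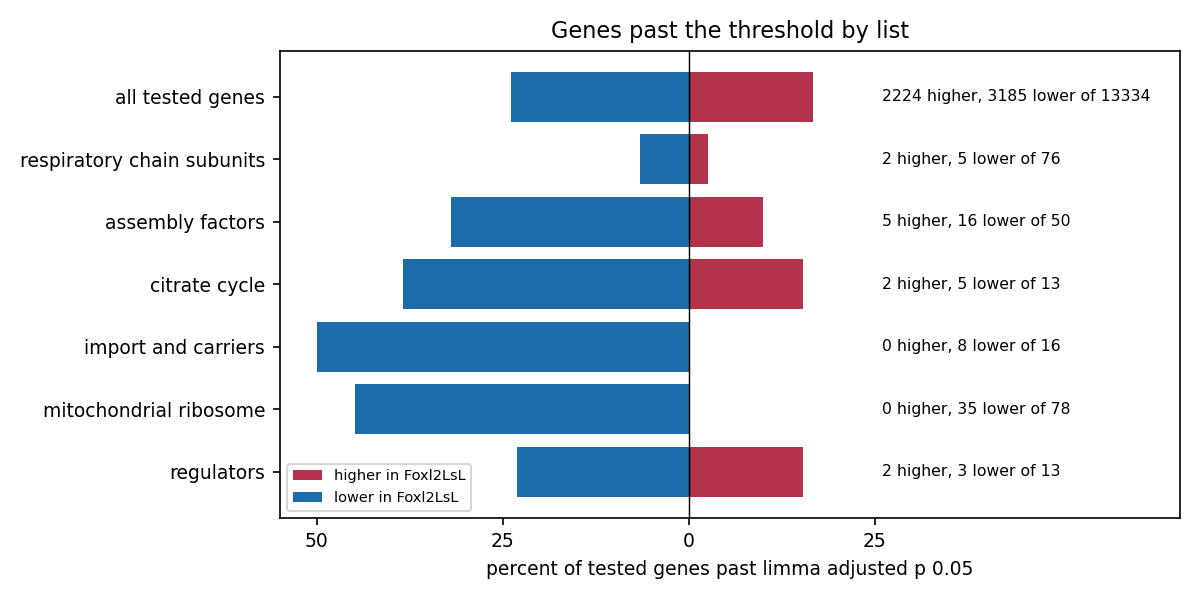
Percent of tested genes past a limma adjusted p of 0.05 (horizontal axis), higher to the right and lower to the left, for all tested genes, the subunits and the other lists, with the counts beside each bar. Of the lists drawn, the subunits have the smallest share called in both directions together, 2 higher and 5 lower of 76, while 35 of 78 mitochondrial ribosome genes were lower.

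Some counts could mix genes. GENCODE M21 places an exon of another gene on the opposite strand over 23 members and on the same strand over 5. Among the called members these include Cox5a with Gm26631 and Cox6c with Vps13b. Whether the counting used strand is not given in the sources used here, so reads of these pairs cannot be told apart. The called genes described above lie (GRCm38) on chromosomes 11 (Uqcrq, 53427922 to 53430831), 9 (Cox5a, 57517328 to 57532427), 7 (Cox6b2, 4751792 to 4753094), 15 (Cox6c, 35931976 to 35938246), 17 (Cox7a2l, 83501917 to 83514333) and 10 (Atp5b, 128083307 to 128090388).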

How the data were processed

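RNA-seq of whole uterus was used, with 3 libraries labelled Pgrcre/+ and 4 labelled Pgrcre/+Foxl2LsL/+. The authors deposited 1 table of FPKM values with gene lengths. The submitters' processing notes name STAR 2.5.2b, featureCounts 1.5.0-p1, Subread, DESeq2 1.12.4 and mm10; roles, annotation and strand setting are not given in the sources used here. Fragments were worked back from FPKM and length: in each library 100% of 1653 to 1832 low values fell within 0.1 of a whole number, with totals of 47800000 to 67200000.

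Genes with a mean of at least 1 FPKM (13334 of 24964) were tested on log2(FPKM + 1) with limma 3.58.1 (R 4.3.3, intensity trend, no replicate block) and Benjamini-Hochberg adjustment at 0.05. Isoform ratios were tested as log2 ratios of FPKM + 1 by exact permutation, two-sided p being 2 times the smaller one-sided p. On simulated data of 13334 genes, 185 of 200 genes changed by 1.5 log2 units were called in the right direction, and 9 unchanged genes were called. The members' estimates were smaller, from -0.72 to 0.58, so the simulation does not show how often changes of their size are called. Results were recomputed under 21 other settings listed beforehand and 2 chosen after seeing the data (centring on the members, and leaving out Foxl2LsL 1 and 2). The members and gene lists were chosen with earlier results of these data known. Named genes were Foxl2, all Sdh genes, up to 4 called members per direction and complex, each complex's most and least abundant member (not for complex II), the isoform pairs and up to 3 called genes per list; others are said to be chosen later. The labels do not say that libraries came from separate animals, so p-values measure the spread between these samples. The result of 1 called member is not reported here.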

Additional observations from a re-analysis of the deposited data

Results flagged for a closer look

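In 63 groups of 4 libraries tested for a single library far from the rest, 2 were found. Chance gives about 1 in 20, so these 2 are no more than chance would give. Cox8b was at 1.42 FPKM in Foxl2LsL 4, while the other Foxl2LsL libraries were at 2.25 to 2.40 FPKM. The ratio of Cox4i2 to Cox4i1 was 0.00671 in Foxl2LsL 2 and 0.00466 to 0.00491 in the others.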

How the results depend on the processing

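The number of members called (7, of which 2 higher and 5 lower) was 18 with GC and length correction (15 lower), 18 with library weights (11 higher), 17 with length correction (14 lower), 15 with quantile normalization (6 higher, 9 lower), 14 with a common sum (1 higher, 13 lower), 6 with median centring (4 higher, 2 lower), 4 with no filter (1 higher, 3 lower), and 10 when centred on the members (8 lower). Only 1 was higher by limma-voom and without Foxl2LsL 1 and 2 together. Leaving out 1 library gave 2 (without control 2) to 13 (without Foxl2LsL 1) members, 0 to 6 higher and 1 to 12 lower. Replicate numbers did not pair the libraries (correlations of 0.23, -0.03 and -0.11), and 1 of 3 controls correlated best with its own number. Fits with the replicate block left out Foxl2LsL 3, which has no control of its number. With the block 3 members (1 higher, 2 lower) and 3243 of all genes were called. With block and length correction 6 members (1 higher, 5 lower) and 3318 genes were called. Leaving out Foxl2LsL 3 without a block gave 3 members (2 higher, 1 lower) and 3975 genes. All genes called numbered 5409 at first and 3315 without Foxl2LsL 1 and 2. Signs turned for genes near 0, none of them called. With GC and length correction, estimates were Cox4i1 -0.0124 and Cox6b1 -0.0401. Without Foxl2LsL 1 and 2, estimates were Sdhc -0.00717 and Sdhd -0.0231. With library weights, estimates were Foxl2 -0.148, Ndufa4 0.0574 and Atp5s -0.0354. When centred on the members, estimates were Ndufa4 0.0330 and Atp5g2 0.0223. With a common sum, estimates were Sdhc -0.0117 and Sdhd -0.0109. With length correction, estimates were Cox4i1 -0.00453 and Cox6b1 -0.0292. With median centring, estimates were Ndufa4 0.0513, Ndufb4 0.0169 and Atp5g2 0.0406. With quantile normalization, estimates were Ndufb4 0.0137, Cox4i1 -0.0343 and Atp5g2 0.0460. With the replicate block, estimates were Sdhc -0.00137 and Ndufa4 0.0248. With replicate block and length correction, the estimate was Cox6b1 -0.0189. Leaving out 1 library gave ranges of -0.0999 to 0.275 for Foxl2, -0.0594 to 0.0651 for Sdhc, -0.0859 to 0.0823 for Sdhd, -0.127 to 0.110 for Ndufa4, -0.101 to 0.0135 for Ndufb4, -0.00797 to 0.123 for Atp5s, -0.0203 to 0.111 for Cox4i1, -0.0686 to 0.139 for Cox6b1, -0.148 to 0.0320 for Cox7a2, -0.0532 to 0.0336 for Atp5g2 and -0.0914 to 0.00624 for the log2 ratio of Atp5g1 to Atp5g3. With each motif shortened by its first letter, the ETS share of member windows was 39.4% and the SP share 74.6%. Shorter motifs match more windows of any gene, and no share of other windows is given for them, so nothing particular to members can be read from these. The causes were not tested.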
